A study of Mus musculus with 4 samples.

Results

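The myogenic regulators Myod1, Myog and Myf6 were examined across single cells of a sorted mouse muscle stem cell culture. The members are the rows with these 3 symbols among the 32285 genes of each count file, chosen by name and not by their values. Their UMIs (unique molecular identifiers, which count captured transcripts) were read in 5481 cells out of the 5985 cell barcodes found in any file. A cell was kept when its barcode occurred in every file and averaged 1000 or more detected genes with mitochondrial UMIs below 10%.

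The donors carried the MyoD-KI genotype, and no control genotype was analysed here. Their muscle stem cells were grown for 5 days in a serum-rich growth medium and then sorted for high MyoD-tdTomato fluorescence. The 4 labelled replicates form 1 group, MyoD-tdTomato high. Because the gate was set on a reporter of Myod1, the level of Myod1 itself is not a finding. How the knock-in alters the Myod1 transcript is not given in the sources used here, and tdTomato is not among the counted genes.

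The replicates were checked for shared cells before any value was read. Each pair of files had 5946 to 5965 barcodes in common, which is 99.9% of the smaller file. Across genes, the profile of a barcode had a median r of 0.793 to 0.799 with its own profile in another file, and the value for a different barcode was 0.662 to 0.667. The 4 files were read as 4 libraries of the same cells (n = 1), and no test between conditions or cells was made. Values per file show how well the libraries repeat, and 95% intervals are exact Poisson or binomial intervals for counting error in 1 file. Summed depth was 62627341 to 68898900 UMIs a file, and kept cells held a median of 11049 UMIs. Some genes that define other tissues were near 0, with Dcn of fibroblasts at 0.327, Cdh5 of endothelium at 0.0804 and Ptprc of leukocytes at 0.0269 UMIs per 1000000 (CPM), while the muscle genes Des and Chrna1 were at 1165 and 953 CPM. Other genes of the fibroblast and pericyte lists were present, with Col3a1 at 110, Ly6a at 29.6, Acta2 at 1425, Notch3 at 50.3 and Pdgfrb at 4.59 CPM, and their part in the results was not tested. No cell type that should lack the members was identified, so free RNA could not be measured and low detection of a member was not separated from background.

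Myod1, Myog, Myf6 and their relative Myf5 encode the basic helix-loop-helix transcription factors of the skeletal muscle lineage. Each pairs with an E protein and binds E-boxes, the short DNA motif CANNTG, next to muscle genes. MyoD commits cells to the lineage and opens chromatin at muscle genes. Myogenin, the product of Myog, drives terminal differentiation together with MEF2 proteins. MRF4, the product of Myf6, is best known from later stages, where it is the most abundant factor of the family in adult fibres.

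In GENCODE M21 (GRCm38), Myod1 (ENSMUSG00000009471) lies on the plus strand of chromosome 7 from 46376474 to 46379099. Myog (ENSMUSG00000026459) lies on the plus strand of chromosome 1 from 134289989 to 134292548. Myf6 (ENSMUSG00000035923) lies on the minus strand of chromosome 10 from 107492853 to 107494737. All are protein-coding genes of 3 exons with no overlapping gene in that annotation. Myf5 follows Myf6 on the same strand (107482908 to 107486134), with 6718 bases between the genes.

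Of the 3 members, 1 had an entry in the RefSeq promoter table (GRCm38.p6). It is shown because Myog is the member with the highest level in these cells and because its promoter carries the motif that the family binds. The sequence covers chr1:134289754-134290053 on the plus strand, from 250 bases before the transcription start to 50 after it, with motif matches in capitals.
Myog promoter: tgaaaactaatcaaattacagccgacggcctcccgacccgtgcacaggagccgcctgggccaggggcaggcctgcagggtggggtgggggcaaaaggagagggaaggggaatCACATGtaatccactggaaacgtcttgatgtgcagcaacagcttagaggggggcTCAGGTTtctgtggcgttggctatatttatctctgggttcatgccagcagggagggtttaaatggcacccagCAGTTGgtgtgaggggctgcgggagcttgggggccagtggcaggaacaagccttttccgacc
Both strands were searched, and the motifs do not overlap. The capitals mark 2 E-boxes, CACATG at -138 to -133 and CAGTTG at -12 to -7 from the start, and the MEF3 motif TCAGGTT at -84 to -78. Of the 32851 promoters with an entry there, 72.3% hold an E-box of any kind, 13.7% hold CAGTTG and 4.07% hold TCAGGTT, and the median promoter has 1 E-box. Neither CAGCTG (16.3% of promoters) nor an exact match to the MEF2 consensus (3.19%) was found in the Myog window. This says only that those letters are not in it, and sites that differ from the consensus were not searched for.

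Over all kept cells the order of the members was Myog, Myod1 and Myf6, with Myf5 between the last 2. Libraries read the 3' end of transcripts, so CPM was taken as a measure of transcripts and was not divided by gene length. Whether reads from introns were counted was not settled. Myog stood at 1804, 1797, 1811 and 1799 CPM in replicates 1 to 4. Myod1 stood at 505, 508, 505 and 509 CPM. Myf6 stood at 7.31, 6.97, 7.21 and 6.82 CPM, resting on 422 to 494 UMIs a file. The ranges of the 3 genes are far apart, and no file changed their order. Myf5, the family member of proliferating progenitors, was at 54.2 CPM (interval 52.4 to 56.0).

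The members differed in how they were spread over cells. To compare cells at equal depth, each was thinned at random to 5000 UMIs in each file, which left 5197 cells. A Myod1 UMI was then present in 80.7%, 81.4%, 80.9% and 81.2% of cells, and the median cell had 2 Myod1 UMIs with quartiles of 1 and 4. A Myog UMI was present in 67.2%, 67.7%, 68.0% and 67.8% of cells. The median cell had 3.25 Myog UMIs, but the quartiles were 0 and 17 and the highest cell reached 72.25 (mean of the files). Myog thus spanned a wide range, with 1681 cells at 0, 443 cells at 2 to 4 and 1087 cells at 20 UMIs or more, as means of the files. A Myf6 UMI was present in 2.87%, 2.69%, 2.48% and 2.71% of cells. Without thinning the shares were 90.1% for Myod1, 76.4% for Myog and 5.49% for Myf6.

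Repeat reading of the same cell shows how far a single library can place Myf6. Over the full depth, 4429 cells had a Myod1 UMI in all files and 156 had none in any. For Myog these numbers were 3340 and 361. For Myf6, 732 cells (13.4%) had a UMI in some file, but 441 of them in only 1 file and 55 in all 4. Between pairs of files, Myf6 detection in a cell was repeated in 39.2% of cases, against 88.1% for Myog and 95.01% for Myod1.

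Joint detection at equal depth showed Myod1 and Myog together in most cells. Both without Myf6 were found in 57.3%, 57.7%, 58.6% and 58.2% of cells, and the 4-file mean of 58.0% (interval 56.6% to 59.3%) was above the 53.3% given by the product of the single shares. Myod1 alone was found in 20.9% of cells and Myog alone in 7.50%, where the products were 25.5% and 12.5%. None of the 3 was found in 10.9% (10.1% to 11.8%), against a product of 5.97%. Cells with both genes or with none of the 3 were thus more frequent than the products, and cells with 1 of the 2 genes less frequent.

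All 3 members were found together in 1.92%, 1.83%, 1.64% and 1.89% of cells, a mean of 1.82% (1.47% to 2.22%), beside a product of 1.47%. The classes of Myf6 with Myod1 only (0.308%), with Myog only (0.370%) and alone (0.192%) rested on means of 16, 19.25 and 10 cells. Of these 3 classes, the interval of Myod1 with Myf6 (0.176% to 0.499%) lay below its product of 0.705%, and the others held theirs.

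**Figure D1:**
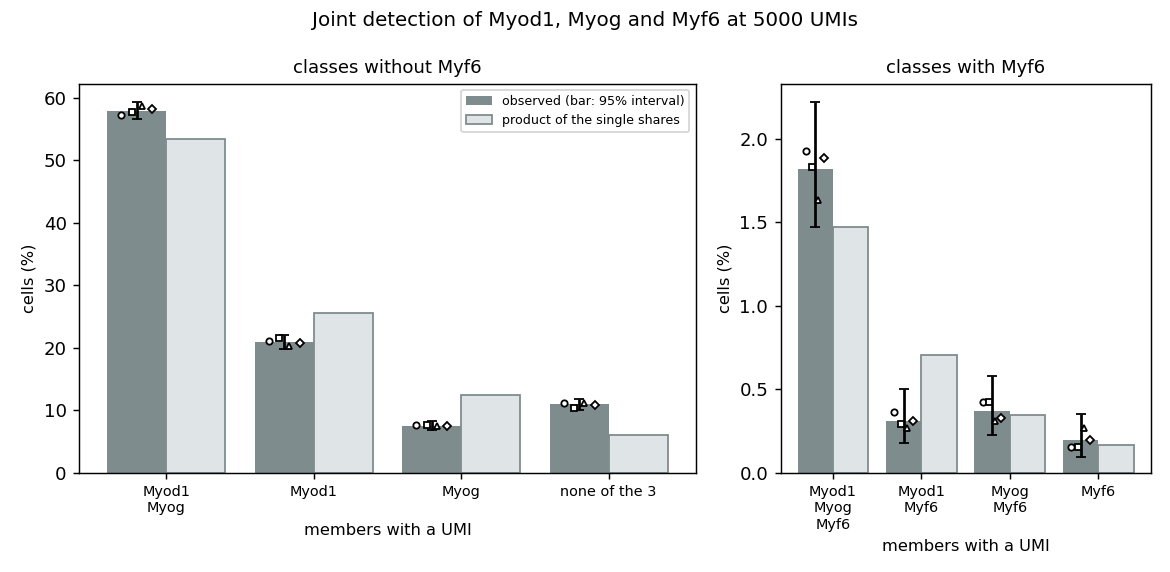
Share of cells at 5000 UMIs in each class of detection, with classes without Myf6 on the left and classes with Myf6 on the right, each with its own axis. Dark bars are means of 4 files with 95% binomial intervals, points are the files and pale bars the product of the single shares; the class with Myod1 and Myog holds 58.0% of cells and the class with none 10.9%.

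Taken pairwise over all thinned cells, Myod1 and Myog were detected together, and Myf6 was detected more often beside Myog. Myod1 was detected in 88.4% of cells with a Myog UMI (files 88.1% to 88.7%) and in 65.7% of cells without one (64.4% to 67.3%). Myog was detected in 81.3% of cells with a Myf6 UMI (interval 73.9% to 87.5%) and in 67.3% of the others (66.0% to 68.6%). This difference was not seen within groups by the summed level of Acta1 and Myh3, which orders the cells below. Under 3000 CPM of it Myog was detected in 55.9% of cells with Myf6 (42.4% to 68.8%) and in 56.5% of those without. At 10000 CPM or more the shares were 100% and 99.8%. Myod1 was detected in 79.0% of cells with Myf6 (71.4% to 85.5%) and in 81.1% without, and these intervals overlap.

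In CPM, the level of Myod1 against Myog followed an arch. In cells with 0 Myog UMIs, Myod1 was at 325, 319, 323 and 327 CPM in the 4 files. It was at 736, 671, 700 and 691 CPM in cells with 5 to 9 Myog UMIs, and at 603, 599, 592 and 624 CPM in cells with 20 or more. The files of these bins do not overlap, and the bins of 1 and 2 to 4 Myog UMIs lay between the first of them, at 430 and 620 CPM. The log2 ratio of Myod1 between 5 to 9 and 0 Myog UMIs was 1.11 (1.02 to 1.20), and between 20 or more and 0 it was 0.90 (0.83 to 0.97).

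Ratios in CPM move with the make-up of the rest of the transcriptome, so the median over all genes is given beside them. From 5 to 9 to 20 or more Myog UMIs, Myod1 had a log2 ratio of -0.21 (-0.30 to -0.12), but the median gene had -0.17, which leaves -0.03 for Myod1. Lower Myod1 at the highest Myog is therefore seen in CPM and hardly against other genes. For 20 or more over 0 Myog UMIs the median gene had -0.35, and Myod1 relative to it was at 1.25.

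Higher Myod1 with more Myog was also present among cells low in Acta1 and Myh3, where contractile genes as a group took 0.607% of UMIs. Where the summed level of Acta1 and Myh3 was under 100 CPM, Myod1 was at 317 CPM with 0 Myog UMIs, 407 with 1, 603 with 2 to 4 and 818 with 5 to 9. In the cells at 10000 CPM or more it was at 332 CPM (264 to 413) with 5 to 9 Myog UMIs and at 507 (467 to 550) with 20 or more. In the bins between, Myod1 showed no increase from 5 to 9 up to 20 or more Myog UMIs. It was at 745 and 696 CPM from 100 to 300 CPM of Acta1 and Myh3, and at 739 and 650 from 300 to 1000. From 1000 to 3000 it was at 743 and 638, and from 3000 to 10000 at 661 and 620. Below 5 Myog UMIs, Myod1 was lower in the 2 bins where these cells were compared. With 0, 1 and 2 to 4 Myog UMIs it was at 328, 441 and 629 CPM in the 100 to 300 bin. In the 300 to 1000 bin it was at 445, 553 and 663 CPM. With 10 to 19 Myog UMIs it was at 828 CPM (733 to 935) in the cells under 100 CPM and at 380 (341 to 425) in those at 10000 or more. At 5 to 9 and at 10 to 19 Myog UMIs, cells low in Acta1 and Myh3 thus held more Myod1 than cells high in them. The group with 20 or more was not compared.

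Read the other way, the CPM of Myog reached a plateau along Myod1. Myog was at 855, 909, 800 and 811 CPM in cells with 0 Myod1 UMIs and at 2495, 2424, 2315 and 2374 CPM in cells with 3 to 4. In cells with 8 or more Myod1 UMIs it was at 2145, 2505, 2406 and 2441 CPM, where replicate 1 is the lowest file. Files of the bins from 3 to 4 upward overlap, and the log2 ratio of 8 or more over 3 to 4 was -0.02 (-0.08 to 0.05). The ratio of 8 or more over 0 was 1.49 (1.42 to 1.57). The share of cells with a Myog UMI did not level off. It was 78.9% (76.6% to 81.1%) with 3 to 4 Myod1 UMIs, 84.7% with 5 to 7 and 89.2% (83.4% to 93.5%) with 8 or more.

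Over all thinned cells, Myf6 was highest at intermediate Myog and showed no increase along Myod1. It was at 3.21 CPM (2.12 to 4.67) with 0 Myog UMIs and 12.8 (8.63 to 18.4) with 5 to 9. With 10 to 19 it was at 10.8 (8.01 to 14.2) and with 20 or more at 6.52 (4.56 to 9.06). The log2 ratio of 20 or more over 5 to 9 was -0.88 (-1.54 to -0.20), on means of 35.5 and 29.5 UMIs. Of the 29.5 UMIs, 19 came from a mean of 48.75 cells at 10000 CPM or more of Acta1 and Myh3, so stage was not held equal. Along Myod1, Myf6 went from 7.86 CPM with 0 UMIs to 4.24 with 8 or more, with a log2 ratio of -0.77 and an interval of -2.20 to 0.59.

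**Figure D2:**
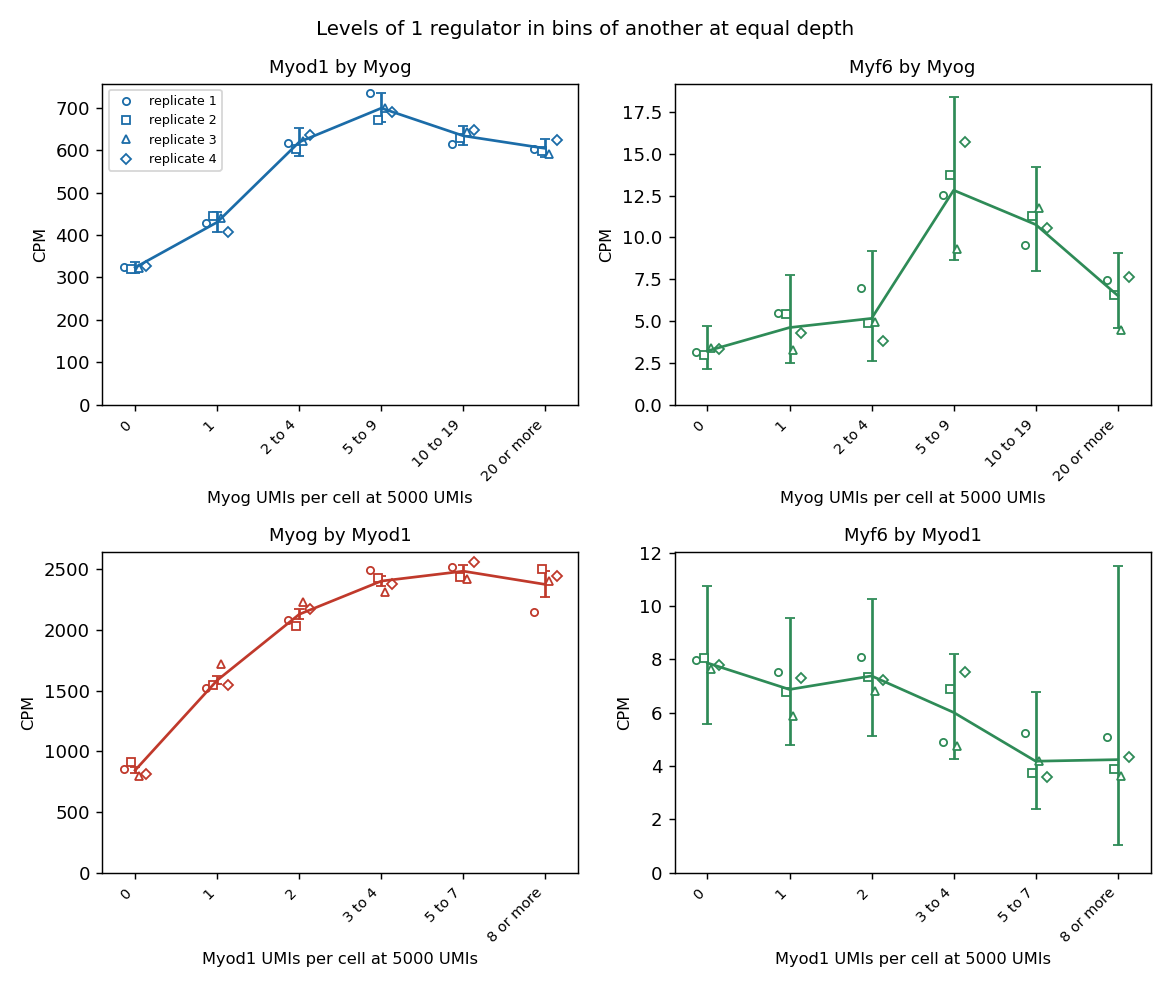
Level (CPM) of 1 regulator in bins of another, counted in UMIs per cell at 5000 UMIs; lines join the means of 4 files, bars are 95% Poisson intervals and points are the files. Myod1 peaks at 699 CPM with 5 to 9 Myog UMIs, Myog levels off near 2402 CPM from 3 to 4 Myod1 UMIs, and the intervals of Myf6 are wide.

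Cells were next ordered by the summed CPM of Acta1, skeletal muscle actin, and Myh3, embryonic myosin heavy chain, both products of differentiating myocytes. The 6 bins held 1970 cells under 100 CPM, 1138 cells from 100 to 300, 475 from 300 to 1000, 535 from 1000 to 3000, 887 from 3000 to 10000 and 476 at 10000 or more. Neither gene is a member, and no member was used to order the cells. Contractile genes as a group took 0.607% of UMIs in the lowest bin and 9.65% in the highest. The median Malat1 level, a nuclear RNA, was 6050 CPM in the lowest bin and 10173 in the highest, and 64.2% against 2.73% of cells were called in S or G2/M. The part of these in the results below was not tested, beyond the alternatives stated.

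This axis orders the cells of the sorted culture by level and not by time. Along it Myog was higher from the middle bins on and Myf6 in the highest bins. Myod1 was at 403, 413, 406 and 407 CPM in the lowest bin, where the cells, like all others, had been sorted for high MyoD-tdTomato. It was highest from 300 to 1000 CPM of Acta1 and Myh3, at 666, 654, 664 and 646 CPM, and lower again at 10000 or more, at 419, 423, 432 and 443 CPM. The 3 sets of file values do not overlap. Against the lowest bin the highest bin had a log2 ratio of only 0.08 (0.01 to 0.14) for Myod1, but the median over all genes was -0.55, so relative to it Myod1 was at 0.63. The place of the Myod1 peak also depends on scale, since relative to the median gene its steps were 0.06 up to 1000 to 3000 CPM and 0.09 up to 3000 to 10000, where CPM gave -0.01 and -0.07.

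The lower Myod1 in the highest bin is partly a matter of scale and depends on the gene that orders the cells. Over the 300 to 1000 bin its log2 ratio was -0.61 (-0.69 to -0.54), and -0.19 relative to the median gene. With cells ordered by Ttn, which encodes the giant sarcomere protein titin, the same ratio was 0.12, and the ratio of the highest over the lowest bin was 0.74 (0.65 to 0.82) in place of 0.08. With contractile UMIs taken out of the total, Myod1 was at 475 CPM in the highest bin and 669 from 300 to 1000.

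Myog was low at the start of the axis and high from its middle on. It was at 254, 246, 256 and 248 CPM in the lowest bin, and at 3908, 3905, 3925 and 3915 CPM in the highest. Files within a bin stayed close together and bins were far apart, with a log2 ratio of 3.96 (3.92 to 3.999). That ratio was 5.37 (5.27 to 5.48) with cells ordered by Ttn, and 3.61 (3.55 to 3.67) for cells at 20000 CPM or more over the lowest bin. The steepest step was from 100 to 300 up to 300 to 1000 CPM, where Myog went from 592 to 2021 CPM (log2 ratio 1.77, 1.73 to 1.81). The same step of Myod1 was from 480.0 to 657 CPM (0.45, 0.39 to 0.51). In the last step, from 3000 to 10000 CPM up to 10000 or more, Myog went from 4169.6 to 3913 CPM, a log2 ratio of -0.09 that becomes 0.11 relative to the median gene.

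Myf6 stayed low until the end of the axis. It was between 2.56 and 3.74 CPM in the first 4 bins, whose intervals overlap. From 3000 to 10000 CPM it was at 7.55, 8.01, 7.86 and 8.25 CPM. At 10000 or more it was at 38.0, 32.7, 35.8 and 32.7 CPM, above every file of the other bins. The log2 ratio of highest over lowest bin was 3.11 (2.79 to 3.43), and 3.66 relative to the median gene. For cells at 20000 CPM or more over the lowest bin it was 4.46 (4.08 to 4.85), above the value of Myog between those groups.

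**Figure D3:**
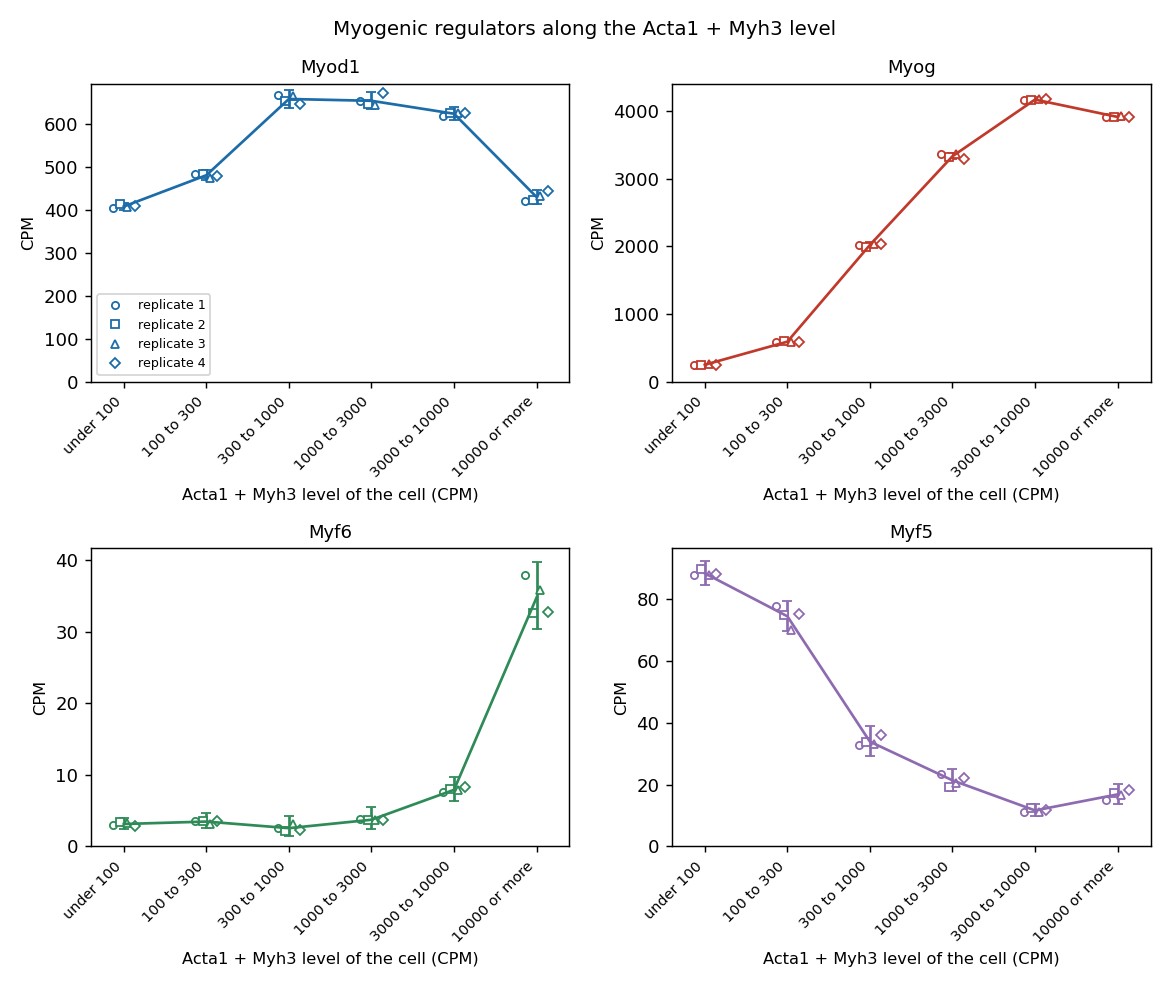
Level (CPM) of Myod1, Myog, Myf6 and Myf5 in bins of the summed Acta1 and Myh3 level of the cell; points are the 4 files, lines join their means and bars are 95% Poisson intervals. On the CPM scale Myod1 peaks at 657 in the 300 to 1000 bin and Myog at 4169.6 in the 3000 to 10000 bin, which both shift to later bins relative to the median gene, and Myf6 reaches 34.8 in the highest bin.

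Detection of Myf6 also repeated better in the highest bin. A UMI of Myf6 was seen again in another file in 60.3% of cases there, in 43.0% from 3000 to 10000 CPM and in 20.1% to 26.8% in the lower bins. At equal depth 11.2% of cells in the highest bin had a Myf6 UMI and 1.62% in the lowest.

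The highest bin was split further at 15000 and 20000 CPM of Acta1 and Myh3, a split chosen after its values were seen. Myf6 was at 19.2 CPM (15.0 to 24.4) in the 269 cells from 10000 to 15000, at 30.7 (22.7 to 40.6) in the 125 cells up to 20000 and at 90.6 (74.0 to 110) in the 82 cells above. The files of the last group were at 111, 82.7, 84.9 and 83.5 CPM, and 37.5% of its cells had a Myf6 UMI at full depth. Median depth was similar in these groups, at 12411, 12072 and 13011 UMIs, and median Malat1 was at 9580, 12513 and 12507 CPM. The part of Malat1 in these levels was not tested.

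In the same 82 cells both other members were below their peaks. Myod1 was at 339, 353, 340 and 354 CPM, against 618, 626, 625 and 625 in the 3000 to 10000 bin. That is a log2 ratio of -0.84 (-0.995 to -0.70), and -0.53 relative to the median gene. Myog was at 3046, 3092, 3056 and 3081 CPM, with a log2 ratio of -0.44 (-0.49 to -0.39), and -0.12 relative to the median gene. The ratio of Myf6 between these groups was 3.35 (2.96 to 3.76). Mef2c, which encodes a MEF2 partner of the family, was at 1676, 1998 and 1942 CPM in the 3 groups, and the fusion gene Mymk at 1697, 1881 and 1933.

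**Figure D4:**
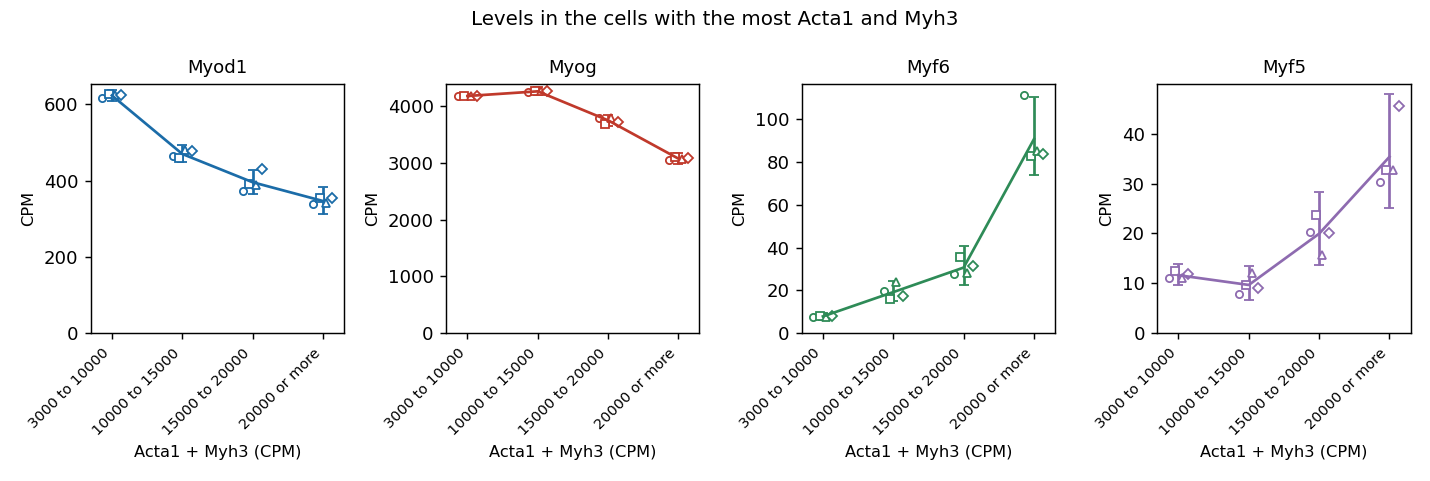
Levels (CPM) of Myod1, Myog, Myf6 and Myf5 in cells from 3000 CPM of Acta1 and Myh3 upward, in 4 groups; points are the 4 files, lines join their means and bars are 95% Poisson intervals. In the 82 cells at 20000 CPM or more Myod1 is at 347 CPM and Myog at 3069, below the other groups, while Myf6 reaches 90.6 and Myf5 35.4.

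Among cells of the highest bin, Myf6 was higher where Myog was lower. At equal depth Myf6 was at 78.8 CPM (46.9 to 122) in cells with 5 to 9 Myog UMIs, 35.2 (23.7 to 50.3) with 10 to 19 and 14.6 (8.51 to 23.4) with 20 or more. In the first of these groups the files were at 87.0, 89.7, 24.5 and 114 CPM, with replicate 3 well below the others. Acta1 was at 13158, 11510 and 11384 CPM in the 3 groups, with the interval of the first above the others, and Myh3 was at 4510, 4371 and 3155. The groups were thus not matched for stage. Their median depth was 14347, 13426 and 11511 UMIs and their median Malat1 13761, 11959 and 8931 CPM. The part of stage, depth and Malat1 was not tested. With contractile UMIs left out of the total, Myf6 was at 88.5, 39.3 and 16.1 CPM. This comparison was added after the pattern had been seen.

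Myf5, best known from progenitors, was higher again at the end of the axis, though below its level in the lowest bin. Along the axis it was at 88.3 CPM in the lowest bin and 11.6 from 3000 to 10000 CPM, but at 35.4 (25.04 to 47.9) in the 82 cells at 20000 or more. The log2 ratio between the last 2 groups was 1.51 (0.99 to 2.02). Pax7, the stem cell factor that accompanies Myf5 in progenitors, was at 5.10 CPM (1.83 to 11.3) in those 82 cells.

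Within the highest bin, without matching for stage, Myf5 was higher in cells with Myf6. At full depth Myf5 was at 38.0 CPM (files 30.2 to 46.4) in cells with a Myf6 UMI and at 10.6 CPM (files 8.74 to 12.3) in those without. It was detected in 31.3% (22.2% to 41.6%) and 9.53% (6.78% to 12.9%) of them. Below 3000 CPM of Acta1 and Myh3, Myf5 was at 98.7 CPM with and 67.9 CPM without Myf6, on median depths of 12959 and 10586 UMIs. Myf6 is read toward Myf5 on the same strand, and whether some UMIs counted for Myf5 came from transcripts begun at Myf6 was not tested.

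To find what else differs with Myf6, cells with and without a Myf6 UMI were compared in the 2 highest bins at equal depth, means of 80.75 and 1253 cells. The sides were not equal in stage, with 13300 against 7552 CPM of Acta1 and Myh3. A gene was called when it was past 2-fold in the same direction in every file, with at least 50 UMIs a file. Of 7419 genes, 13 were called higher, which is 0.175%, and 9 lower, which is 0.121%. The highest were Casq1 (51.6 against 7.46 CPM, log2 ratio 2.63, 1.85 to 3.36), the calcium store protein of fast fibres, and Xirp2, an actin-binding protein of the sarcomere junction, at 2.17 (1.51 to 2.87). Fhl1, a LIM protein of striated muscle, was at 1.94, the fatty acid binding protein Fabp3 at 1.90 and the costamere gene Cmya5 at 1.73. Of 16 measured genes of mature muscle 1 was called (Casq1), and of 21 differentiation genes none, with Mymk at 1605 against 1487 CPM. The summed level of 5 pericyte and smooth muscle markers, which include Acta2 of early myocytes, was 2354 against 3147 CPM. That of 5 fibroblast markers was 24.8 against 44.2 CPM, and it also went from 58.5 to 25.1 CPM between these 2 bins. Dcn and Pdgfra were at 0 where Myf6 was detected. At 0.327 and 0.499 CPM over all kept cells, they are too low for a 0 in so few cells to be read.

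The lowest genes of this comparison were Spock1 (-3.28), St3gal4 (-2.89), Heg1 (-2.78), Cecr2 (-2.56) and the cell cycle inhibitor Cdkn1c (38.6 against 167 CPM, -2.19, -2.86 to -1.37). The intervals of St3gal4 and Cecr2 include 0, and Cecr2 was not past 2-fold in every file. Myog was at 3255 against 4432 CPM (-0.45, -0.53 to -0.36) and Myod1 at 445 against 564 CPM (-0.34, -0.56 to -0.12), neither past 2-fold. Within the highest bin alone, where the sides still differed in stage (17531 against 14048 CPM of Acta1 and Myh3), 4 genes were higher and 1 lower, and Casq1 (1.94), Cmya5 (1.37) and Fhl1 (1.34) stayed past 2-fold while Fabp3 (1.18), Xirp2 (1.44) and Cdkn1c (-1.44) did not do so in every file. There Myog was at 2957 CPM with and 4255 CPM without Myf6.

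Myod1 was next compared with the rest of the transcriptome among cells without Myog. Cells with 4 or more Myod1 UMIs (a mean of 242 cells) were set against cells with 0 (a mean of 577), all with 0 Myog UMIs at equal depth. The sides were alike in Acta1 and Myh3 (80.9 and 76.7 CPM), and 58.6% against 70.3% were in S or G2/M. They were not alike in other muscle genes, and the summed level of 6 myocyte markers was 1013 against 672 CPM. The 17 measured differentiation genes had a median log2 ratio of 0.52 with 0 called, beside -0.05 for all genes. The 9 measured genes of mature muscle had 0.62, with 1 called higher (Pgam2). Of 7302 genes, 13 were called higher in cells with Myod1, which is 0.178%, and 39 lower, which is 0.534%.

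The highest gene was Gm28653 (489 against 99.9 CPM, log2 ratio 2.29, 2.08 to 2.49), a long noncoding RNA gene on the plus strand of chromosome 1 from 20669882 to 20684298 in GENCODE M21. It overlaps Mir206 and Mir133b, the genes of muscle microRNAs, on the same strand. It was followed by Scx, a tendon transcription factor, at 1.91, by the muscle splicing regulator Rbm24 (256 against 68.1 CPM) at 1.90 (1.64 to 2.16) and Pdlim3 of the Z-disc at 1.61. Of 14 measured partner factors of the family 1 was called, Hes6 (578 against 239 CPM, 1.27), an inhibitor of Notch effector Hes1. No E protein of 3 measured was called, with Tcf12 at 304 against 305 CPM.

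Lower with Myod1 were Gucy1a1 (-3.92), Pdgfrb (-3.35), Col5a3 (-3.14), 4833422C13Rik (-2.99) and Heyl (-2.86). Pdgfrb encodes a growth factor receptor and Heyl a Notch effector. Of 11 measured inhibitors of the family 2 were lower, Heyl (6.25 against 50.6 CPM) and Hey1 (6.23 against 27.7 CPM, -2.02), while Id3 was at 1420 against 1435 CPM. Id1 (685 against 497 CPM, 0.46, 0.34 to 0.59) and Id2 (221 against 139 CPM, 0.67, 0.44 to 0.90) lay in the other direction in every file without being past 2-fold. The median log2 ratio of the inhibitors was -0.17, beside -0.05 for all genes. Pax7, which was at 76.6 against 131 CPM (-0.77, -1.11 to -0.44), was not called, and neither was Myf5 at 80.3 against 102 CPM (-0.36).

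Of the markers of other cell types with enough UMIs, 1 of 3 pericyte and smooth muscle genes was lower with Myod1, Pdgfrb, and 0 of 2 fibroblast genes. The summed level of the 5 pericyte and smooth muscle markers was 585 to 641 CPM in the files of cells with Myod1 and 669 to 712 CPM in those without. Of its genes Pdgfrb was at 1.25 against 19.7 CPM and Notch3 at 54.4 against 139, but Acta2, which holds most of the sum, was at 542 against 522, Rgs5 at 20.4 against 8.81 and Myh11 at 0.221 against 0.0847. The 5 fibroblast markers summed to 202 to 228 CPM with and 243 to 257 CPM without Myod1, with Dcn at 0.207 against 0.259 CPM and Lum at 0 on both sides. The immune genes Ptprc, Adgre1 and Cd3e and the endothelial genes Cdh5 and Kdr were at 0 on both sides, but their lists were not. The 5 endothelial markers summed to 3.27 to 4.42 CPM in the files with Myod1 and 1.39 to 2.55 CPM without. The 5 immune markers summed to 0 to 2.45 CPM with and 0.348 to 1.36 CPM without Myod1. For the 4 Schwann or neural markers the sums were 2.33 to 3.32 and 1.09 to 2.78 CPM. Files of the immune and of the Schwann or neural sums overlap between the sides.

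Among cells with 10 or more Myog UMIs, a comparison added after the first, the calls were mostly of genes lower with Myod1. Cells with 4 or more Myod1 UMIs (735 on average) were set against cells with 0 (172). Of 6646 genes, 1 was called higher, which is 0.015%, and 37 lower, which is 0.557%. The 1 higher gene was Inf2, an actin regulator, at 14.9 against 4.62 CPM (1.56, 0.22 to 2.87), and Ccnd1 had the highest mean ratio (37.4 against 12.3 CPM, 1.59, 0.69 to 2.49) without being past 2-fold in every file. Below it were Col18a1 at 1.53, Tafa5 at 1.52 and Ccn4 at 1.35.

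The lower genes of this comparison belong to contracting muscle in part. The lowest were Fabp3 (18.3 against 129 CPM, -2.77, -3.19 to -2.32), Prkg1 (-2.57), Tceal7 (-2.40), Folr1 (-2.19) and Limch1 (-2.08). Of 15 measured genes of mature muscle 2 were called lower, the perinatal myosin Myh8 (66.2 against 238 CPM, -1.80) and the fast troponin Tnnc2 (381 against 933 CPM, -1.28). Of 21 differentiation genes Cacna1s (-1.46) and Myl4 (-1.31) were called lower, and the median of that list was -0.46, beside 0.08 for all genes. Acta1 and Myh3 together were at 3104 CPM in cells with 4 or more Myod1 UMIs and at 6976 CPM in cells with 0, so the sides differed in stage. Myog itself was at 4373 against 4199 CPM (0.06).

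The genes that cooperate with or oppose the family were then followed from the lowest to the highest bin of Acta1 and Myh3. Of 11643 genes with 50 UMIs or more, 893 were called higher in the highest bin, which is 7.67%, and 2973 lower, which is 25.5%. Taken relative to the median gene, whose log2 ratio was -0.55, 1463 were higher and 1650 lower, and each list is given on that scale as well. Differentiation genes known to depend on the family were higher in 17 of 21, with a median log2 ratio of 4.47, and relative to the median gene in 19. They included Myl4 (7.28), Actc1 (6.82), the fusion genes Mymx (5.07) and Mymk (4.47) and the cell cycle inhibitor Cdkn1a (3.07). Cdh15, Chrnb1, Musk and Rapsn were not called. Of 16 measured genes of mature muscle 14 were higher (15 relative to the median gene), with Myh1 at 7.77, Myh8 at 7.19 and Mb at 5.91.

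Partner factors differed among themselves. Of 15 measured, 5 were higher, namely Mef2c (20.6 to 1804 CPM, 6.39), Klf5 (3.65), Hes6 (1.93), Mef2a (1.70) and Mef2d (1.26). The 5 lower ones included Meis1 (-1.70), Eya1 (-1.59), Six4 (-1.31) and Sp1 (-1.17). Relative to the median gene 6 were higher, with Runx1 added, and 1 lower.

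Inhibitors of the family were mostly lower. Of 14 measured, 9 were lower and 1 higher, with a median of -1.87, and relative to the median gene 8 were lower and 2 higher. The lower ones included Heyl (-3.36), Snai2 (-3.30), Hes1 (-3.08) and Mdfic (-3.04), and Id3, which sequesters E proteins, was at 384 against 1321 CPM (-1.78). Zeb1, a repressor that competes for E-boxes, was higher, at 226 against 82.6 CPM (1.44). Among the 3 E proteins Tcf3 was lower (9.51 against 43.2 CPM, -2.07), also relative to the median gene, while Tcf12 (190 against 324 CPM, -0.77) and Tcf4 (342 against 516 CPM, -0.59) were not past 2-fold. Of 20 coregulators 1 was higher, Rb1 (1.82), and 6 were lower, among them Suv39h1 (-2.63) and Ezh2 (-2.39), but relative to the median gene 2 were higher and 2 lower. Of 9 measured stem and progenitor genes 7 were lower, with Pax7 at 5.43 against 102 CPM (-4.001), and the same number relative to the median gene.

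By called cell cycle phase, Myog was lower in dividing cells than in others. Phases came from the expression of 43 S and 52 G2/M genes, with 55.7% of cells in G1, 14.0% in S and 30.3% in G2/M. In G1 cells Myog was at 2876, 2872, 2894 and 2868 CPM, in S cells at 372, 372, 358 and 365, and in G2/M cells at 861, 847, 861 and 861. The files of the phases do not overlap. The log2 ratio of S or G2/M over G1 was -2.02 (-2.04 to -1.997) for Myog and -0.39 (-0.42 to -0.36) for Myod1, and the median gene had 0.12. With cycling cells called from a UMI of Mki67 or Top2a in place of the phase lists, it was -1.19 (-1.21 to -1.17) for Myog, -0.23 for Myod1 and -1.24 for Myf6.

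Phase and stage go together, so the ratios were also taken within bins. For Myog the ratio was -0.84 (-0.92 to -0.77) under 100 CPM of Acta1 and Myh3, and between -0.50 and -1.15 in the other bins, each interval excluding 0. The -1.15, at 10000 CPM or more, rests on 4 S and 9 G2/M cells. Their median depth was 24507 and 20864 UMIs, against 12314 in G1 cells of that bin, and the part of depth was not tested. Myod1 was lower in dividing cells under 100 CPM, at 375 against 491 CPM (-0.39, -0.45 to -0.32), and in each bin up to 3000 CPM. From 3000 to 10000 CPM its ratio was -0.06 (-0.16 to 0.04), at 10000 or more -0.17 (-0.45 to 0.11), and in cells with 10 to 19 Myog UMIs 0.05 (-0.07 to 0.17). Myf6 had a ratio of -1.34 (-1.59 to -1.08) over all cells, at 3.57 against 10.5 CPM, but 0.05 (-0.56 to 0.63) under 100 CPM and intervals that include 0 in all 6 bins. In cells with 5 to 9 Myog UMIs it was at 4.10 against 20.1 CPM (-2.06, -3.41 to -0.74), a difference that was not taken within stage.

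**Figure D5:**
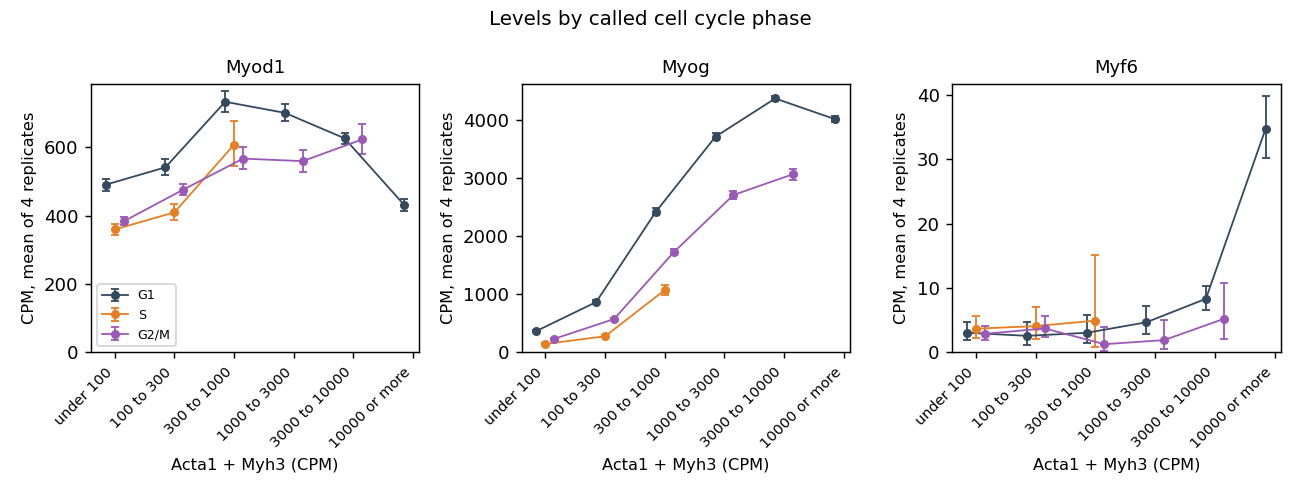
Levels (CPM, mean of 4 files) of the members in G1, S and G2/M cells within bins of the summed Acta1 and Myh3 level, for bins with at least 20 cells; bars are 95% Poisson intervals. Myog is lower in S and G2/M than in G1 in each bin shown, and Myod1 is so up to 3000 CPM.

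Likeness to each member was taken as Pearson correlation of log counts over the 5197 thinned cells, among 7895 genes seen in at least 5% of them (7896 for Myf6). These cells share libraries and stage, and the values are descriptions. Closest to Myod1 were Rbm24 (0.53), Hes6 (0.47), Purb (0.46), Gm28653 (0.46) and Myog (0.42), and farthest were Mgp (-0.39), Morrbid (-0.38), Pax7 (-0.37), Notch3 (-0.37) and Marcks (-0.37). Closest to Myog were Mymk (0.86), Svbp (0.84), Mylpf (0.82), Tnnt3 (0.81) and Bin1 (0.81), and farthest were Ptma (-0.79), Ftl1 (-0.73), Anxa2 (-0.73), Id3 (-0.72) and Anxa1 (-0.71).

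Closest to Myf6 were Fabp3 (0.29), Cox6a2 (0.28), Tcap (0.28), Smpx (0.27) and Bex1 (0.27), weak values that rest on sparse counts. Farthest were Actb (-0.23), Hmgb1 (-0.20), Rpl12 (-0.19), Rpl13a (-0.19) and Actg1 (-0.18). Myf6 itself had r of -0.05 with Myod1 and 0.07 with Myog.

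A few cells passed the reporter gate without any Myod1 UMI. The 156 cells with none in any file made up 2.85% of the kept set and were shallower, with a median of 7885 UMIs against 11614 in the 4429 cells with Myod1 in all files. They had 47.6 CPM of Myog against 2020 in the latter, 168 CPM of Pax7 against 45.9 and 109 CPM of Myf5 against 46.9. The muscle genes Des and Cdh15 were present in them at 789 and 147 CPM. The part of depth in their lack of Myod1 was not tested.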

How the data were processed

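The authors deposited filtered UMI counts per gene and barcode for each of 4 samples, raw and not normalized per the labels and file headers. Libraries used 10x 3' v3.1 chemistry. The file headers name Cell Ranger 7.1.0, while the submitters' processing notes name Cell Ranger 3.1.0 and the builds mm10 and GRCm39, and which build was used was not settled. GENCODE M21 held 32158 of 32285 gene identifiers. CPM were computed from summed UMIs, and log2 ratios from CPM plus 1, averaged over files. Thinning used random draws without replacement to 5000 UMIs. No doublet caller was run, and leaving out the 5% of cells with the most UMIs is among the alternatives. Python 3.11.15 with numpy 2.4.6, scipy 1.17.1 and scanpy 1.11.5 was used, and scripts were tested on simulated data. Poisson and Clopper-Pearson intervals (95%) and conditional binomial intervals of ratios cover counting error only. The members and gene lists were chosen with earlier results of these data known. Alternatives are in the closing section. Genes named are the members, listed genes, and the 5 highest and 5 lowest of each comparison. A few genes that this rule names are not reported here.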

Additional observations from a re-analysis of the deposited data

Results flagged for a closer look

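In 76 values with 4 files, 3 had a file far from the other 3, where chance gives about 1 in 20. Myod1 in cells with 3000 to 10000 CPM of Acta1 and Myh3 was at 617.6 CPM in replicate 1, against 625 to 626 in the others. Myog in cells with 1 Myod1 UMI was at 1722 CPM in replicate 3, against 1524 to 1548. Myog in G2/M cells was at 847 CPM in replicate 2, against 861 in each of the others. Since the files hold the same cells, these are differences between libraries.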

How the results depend on the processing

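No paired analysis was possible because the 4 files are libraries of the same cells in 1 group and no test was made. Leaving out each file in turn gave 3.08 to 3.24 for the Myf6 log2 ratio between the end bins of Acta1 and Myh3, and left levels, shares and Myod1 ratios within their intervals. Calls need every file to pass, so 3 files give more of them: 21 to 24 genes lower with Myf6. The Myf6 ratio was 3.66 relative to the median gene, 2.29 with a pseudocount of 5 CPM and 4.46 for 20000 CPM or more over the lowest bin, where Myod1 turned to -0.23 and Myog was at 3.61. With bins of Ttn, the Myod1 ratio of the highest over the 300 to 1000 bin turned to 0.12, and the ratios of highest over lowest bin were 0.74 for Myod1 and 5.37 for Myog. Myod1 by Myog was 0.98 without thinning, 1.25 relative to the median gene and 1.004 with bins of Myog CPM. At 3000 UMIs the shares with a UMI were 68.6% for Myod1, 61.9% for Myog, 1.76% for Myf6 and 0.953% for all 3 together, and without thinning 90.1%, 76.4%, 5.49% and 4.51%, so that depth sets these shares. A stricter cell filter (2000 genes, 5% mitochondrial) gave 66.3% for Myog, and levels of 1718 CPM for Myog and 6.24 for Myf6. The level of Myog was 1854 CPM without the 5% of cells with most UMIs, 1849 without cells under 2000 CPM of Malat1, 1872 as a mean over cells and 1852 with contractile UMIs out of the total. Myod1 was at 498.8 CPM without the cells low in Malat1 and at 520.5 with contractile UMIs out of the total. The ratio of Myod1 by phase was -0.42 without low Malat1 cells, -0.44 without contractile UMIs, -0.51 relative to the median gene and -0.23 with cycling cells called from Mki67 or Top2a, a change that took Myog from -2.02 to -1.19. Genes higher with Myf6 numbered 6 under the stricter filter, 8 at 3000 UMIs, 6 with 200 UMIs or more, 30 with no minimum, 4 in the highest bin alone and 21 relative to the median gene, and genes lower 16 at 3000 UMIs, 2 with 200 UMIs or more, 98 with no minimum and 1 in the highest bin alone. Genes higher with Myod1 without Myog numbered 8 with 200 UMIs or more, 24 with no minimum and 1 in cells with 10 or more Myog UMIs, and genes lower 11 and 96 with those minimums. Between the end bins, 1463 genes were higher and 1650 lower relative to the median gene. Of the alternative values of these summary results 119 stayed within the interval of the reported value, or a count within 1.5 times, and 48 did not. Among other values 67 stayed so, 21 did not and 2 changed sign. The count minimum changes how many genes are tested, and for the other changes the cause was not tested.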
